A study of Mus musculus with 3 samples.

Results

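The cells described here were Cd44 and Aqp1 fibroblasts, stromal cells of day 5 heterotopic ossification (HO) masses in which transcripts of both genes were found. They were chosen by a rule on measured counts of unique molecular identifiers (UMIs), each of which stands for 1 captured transcript. A cell passed when it had 200 to 6000 genes and at most 5% mitochondrial UMIs. It was stromal when *Col1a1*, *Col1a2*, *Col3a1*, *Dcn* and *Lum* together made up at least 1% of its UMIs and it had 0 UMIs of the macrophage gene *C1qa*. It was a member when it also had at least 1 UMI of *Cd44* and of *Aqp1*, at most 1 of *Cxcl12*, and 0 of *Pi16*, *Sox9*, *Acan* and *Col2a1*. The rule kept 231 cells of 21503 that passed, 117 of them from the Matrigel-only library, 16 from the Vehicle library and 98 from the Palo library. Levels of the genes in the rule are therefore given as a description.

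The masses came from female CD-1 mice of 6 to 8 weeks with implants of Matrigel, a basement membrane gel, under the skin. The Matrigel-only mice received no recombinant human BMP2 (rhBMP2), a protein that induces cartilage and bone, and were given nothing by mouth. The Vehicle mice carried rhBMP2 in the gel and received the solvent, corn oil and DMSO. The Palo mice carried rhBMP2 and received palovarotene, an agonist of retinoic acid receptors, at 4 mg/kg daily for 5 days. Cells were released with dispase, and those of a group were pooled in 1 droplet library, so animals could not be separated. Vehicle differed from Matrigel-only both in rhBMP2 and in the oral dosing, and these cannot be told apart. Palo differed from Matrigel-only in rhBMP2, oral dosing and palovarotene, which cannot be told apart either. Each group is 1 library, so differences between groups could not be tested against replicates. Intervals below are 95% intervals that cover counting error only.

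CD44 is a cell surface receptor for hyaluronan, a long sugar polymer of loose connective tissue, and AQP1 is a water channel of cell membranes. Fibroblasts of skin and fascia make collagen matrix and include *Pi16*- and *Dpp4*-positive progenitor cells, *Cxcl12*-rich cells near vessels and contractile myofibroblasts. In rhBMP2 implants, stromal cells also turn into *Sox9*-, *Acan*- and *Col2a1*-positive cartilage cells, which the rule left out. On the mm10 assembly *Cd44* lies at chr2:102811141-102901665 on the minus strand and *Aqp1* at chr6:55336432-55348555 on the plus strand.

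Members were far fewer among Vehicle stroma than among stroma of the other libraries. Of 1767 Matrigel-only stromal cells 6.62% were members (exact binomial interval 5.51 to 7.88). The share was 1.33% of 1205 cells for Vehicle (0.761 to 2.15) and 10.0% of 980 cells for Palo (8.19 to 12.1). Vehicle minus Matrigel-only was -5.29 percentage points (Newcombe interval -6.65 to -3.95), and the Palo share was 8.67 points above that of Vehicle (6.76 to 10.8). Palo was 3.38 points above Matrigel-only (1.24 to 5.68). Of all cells that passed, members were 1.34% in Matrigel-only, against 0.292% in Vehicle and 1.34% in Palo, and Palo and Matrigel-only differed by 0.0025 points (-0.354 to 0.368).

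The low Vehicle share arose at the cartilage genes of the rule. Stromal cells with both *Cd44* and *Aqp1* were 265 in Matrigel-only, against 201 in Vehicle and 248 in Palo, or 15.0%, 16.7% and 25.3% of stromal cells. Among these, a UMI of *Sox9*, *Acan* or *Col2a1* was found in 29.1% in Matrigel-only, against 91.0% in Vehicle and 40.3% in Palo. *Sox9*, the master regulator of cartilage differentiation, was found in 76, 163 and 99 of them. *Acan*, which encodes the proteoglycan aggrecan, was found in 0, 115 and 2, and *Col2a1*, the main collagen gene of cartilage, in 1, 74 and 0. The cartilage genes alone removed 164 Vehicle cells, 43 Matrigel-only cells and 58 Palo cells. Without that criterion, an alternative added after the data were seen, the shares were 9.05%, 14.9% and 15.9%, and Vehicle was 5.88 points above Matrigel-only, the opposite direction. Vehicle cells with *C1qa* that fell short of the collagen criterion also held cartilage transcripts, *Acan* in 4.26% and *Col2a1* in 6.93% of 2323 cells, while 0 of 4672 such cells of Matrigel-only and 0 of 4309 of Palo held either. Whether transcripts from other cells led to exclusions was not tested.

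**Figure D1:**
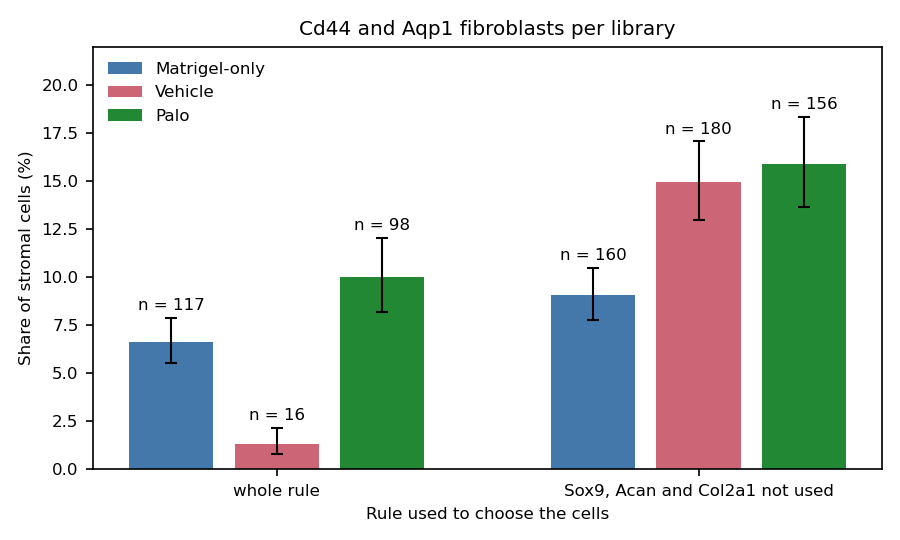
Share of stromal cells (y axis, percent) kept by the whole rule (left) and with *Sox9*, *Acan* and *Col2a1* not used (right), for the Matrigel-only, Vehicle and Palo libraries, with exact binomial 95% intervals and the number of cells above each bar. Under the whole rule Vehicle is lowest at 1.33%, and without the cartilage genes it stands at 14.9%, between Matrigel-only at 9.05% and Palo at 15.9%.

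Members were deeply sequenced cells. The median was 12949 UMIs per member in Matrigel-only (2086 to 27027), against 23618 in Vehicle (11102 to 31744) and 16081.5 in Palo (1424 to 30233), while the medians of all stromal cells were 8789, 16932 and 12732. Members together held 1537740, 366459 and 1568093 UMIs. A deeper cell meets a presence criterion more easily and a criterion of 0 UMIs less easily. When each stromal cell was thinned to 3000 UMIs before the rule, 121, 14 and 132 cells qualified and the Palo share was 14.1%. Members near the limits were few for *Cd44*, with 4, 0 and 5 cells at 1 UMI, and more for *Aqp1*, with 17, 4 and 16. Outside the limit, 110, 44 and 59 cells missed membership for want of *Aqp1* alone, and their median depths were lower, at 8847, 14160 and 11199 UMIs. Pairs of libraries shared 11 to 21 cell barcodes, and no member carried one.

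The genes that name the population behaved differently from one another. Levels are given in counts per 1000000 (CPM), a gene's UMIs summed over the members of a library relative to all UMIs of those members. *Cd44* was at 1437 CPM in Matrigel-only (exact Poisson interval 1377 to 1498), against 510 in Vehicle (440 to 589) and 2241 in Palo (2168 to 2316). *Aqp1* was at 474 CPM (440 to 510), 221 (176 to 275) and 839 (795 to 886). For both genes the level was highest in Palo and lowest in Vehicle, which is a description, since the rule used them. The rule asked only for 1 UMI of each, and single members of Palo held up to 119 UMIs of *Cd44* and 67 of *Aqp1*.

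*S100a4*, a calcium-binding protein of motile fibroblasts (chr3:90603771-90606045), was at 3584 CPM in Matrigel-only, against 2328 in Vehicle and 3152 in Palo and was found in 117 of 117, 15 of 16 and 96 of 98 members. *Col5a3*, a chain of collagen V that joins collagen I fibrils (chr9:20770050-20815067), was at 3263, 1768 and 4179 CPM and was found in every member of all 3 libraries. These genes were thus general to the members. *Il11*, a cytokine of the interleukin-6 family (chr7:4772373-4782859), was at 35.1, 57.3 and 34.4 CPM, with intervals that overlapped, and *Nos2*, the inducible nitric oxide synthase (chr11:78920787-78960254), was at 127, 5.46 and 19.1 CPM.

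Both sparse markers were found in a minority of members. *Il11* was found in 20.5% of members in Matrigel-only, against 31.2% in Vehicle and 29.6% in Palo, or 7.07%, 14.6% and 9.23% at 3000 UMIs per cell. In *C1qa*-positive cells, whose median depths were 2916.5, 3604 and 3952 UMIs, its share at that depth was at most 0.155%. *Nos2* was found in 38.5%, 12.5% and 15.3% of members, or 19.9%, 2.01% and 4.18% at 3000 UMIs, and in at most 0.350% of *C1qa*-positive cells. The 2 Vehicle cells with *Nos2* held 1 UMI each. In the other stroma *Nos2* was at 24.7, 26.3 and 2.41 CPM, so members were higher in Matrigel-only and Palo and past 2-fold lower in Vehicle. Stromal cells that the cartilage genes alone removed held 89.9, 28.7 and 17.8 CPM of *Nos2*. In Palo 1 of the 15 *Nos2*-positive cells held 40% of the UMIs of that gene.

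**Figure D2:**
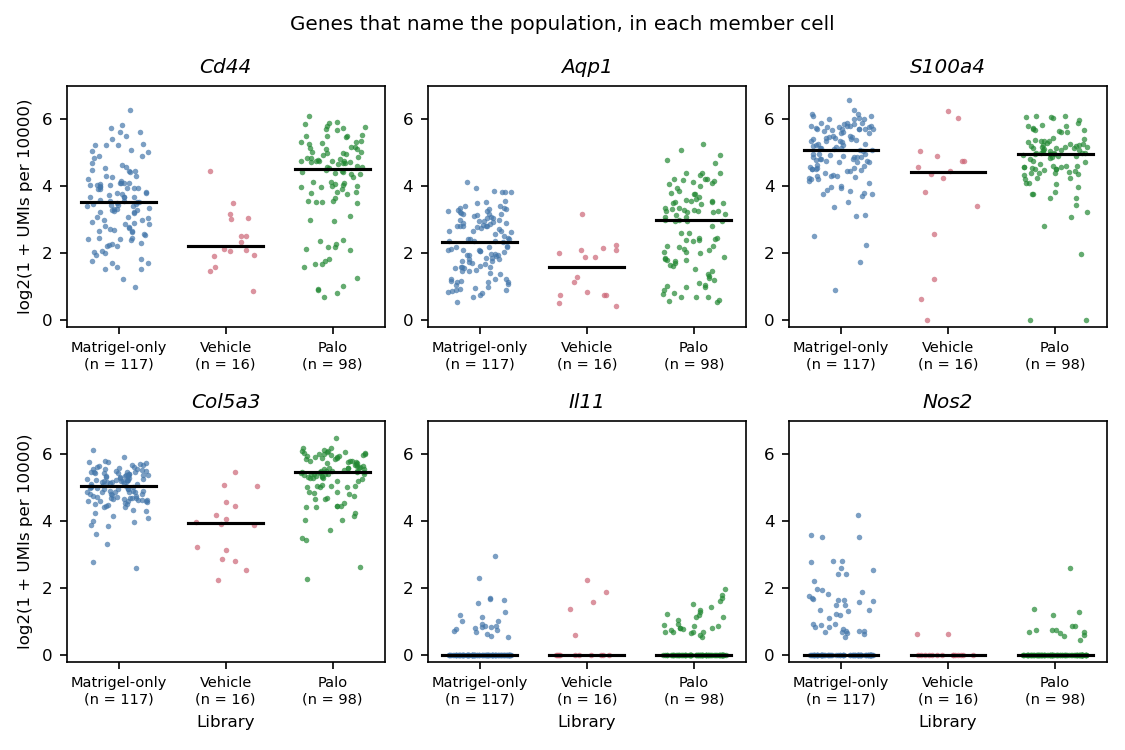
UMIs per 10000 in each member cell (y axis, log2 of 1 + value) for the 6 genes that name the population, by library, with 117 Matrigel-only, 16 Vehicle and 98 Palo cells as points and a bar at the median. *Cd44* and *Aqp1* are highest in Palo and lowest in Vehicle, *S100a4* and *Col5a3* are in nearly every cell, and the medians of *Il11* and *Nos2* are 0 in every library.

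Broader fibroblast genes were present in members, though mostly below the other stroma. Of the fibroblast matrix list (18 genes) 4, 6 and 5 were higher and the rest lower in members of Matrigel-only, Vehicle and Palo. Of all genes 50.3%, 53.2% and 49.5% were higher. *Pdgfrb* was past 2-fold lower in Matrigel-only, *Lum* and *Dcn* in Vehicle, and *Pdgfrb* and *Pdgfra* in Palo. These were 1, 2 and 2 of the 18, beside 5.65%, 9.10% and 5.64% of all genes. Between libraries 7 of the 18 were past 2-fold lower in Vehicle than in Matrigel-only members and 3 higher, beside 10.8% and 6.42% of all genes. *Col1a1* was at 22287, 19765 and 25275 CPM in members of Matrigel-only, Vehicle and Palo, and *Prrx1*, a transcription factor of limb and skin mesenchyme, at 804, 368 and 911 CPM. *Thy1*, a fibroblast surface protein, was at 906 CPM in Matrigel-only and 1015 in Palo, but at 145 in Vehicle. *Dcn*, a small proteoglycan that was part of the collagen criterion, was at 3117, 95.5 and 2380 CPM.

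Most markers of other cell types were low. The macrophage list (15 genes) summed to 296, 79.1 and 221 CPM in members against 31734, 28557 and 34724 in *C1qa*-positive cells. *Lyz2* was its most abundant gene, and 1 cell held 39.8% of its UMIs in Matrigel-only and 1 cell 40.4% in Palo. The endothelial list (12 genes) summed to 46.8, 24.6 and 40.8 CPM, most of it *Eng*, and *Pecam1*, which marks endothelium, had 1, 0 and 0 UMIs. The erythroid list (7 genes) held 5, 3 and 3 UMIs, led by *Hbb-bs*. Endothelial and red cells, the usual makers of AQP1 in other tissues, were thus near 0 by their defining markers.

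Of the remaining lists, that of pericytes and smooth muscle (10 genes) summed to 938, 649 and 707 CPM, of which *Ndufa4l2*, a gene also induced by low oxygen, made up 908, 529 and 647. The sum in the other stroma was 549, 1226 and 583 CPM. *Des*, the muscle filament desmin, was past 2-fold higher in members in each library, at 9.75, 57.3 and 22.3 CPM against 1.73, 19.2 and 6.16. *Cspg4* was also past 2-fold higher in Palo. *Kcnj8* was past 2-fold lower in each library, *Abcc9* in Matrigel-only and Palo, and *Ndufa4l2* in Vehicle. *Rgs5*, which marks pericytes, was at 0, and the part of such cells in the results was not tested. Mesothelial markers (10 genes) summed to 26.0, 10.9 and 9.57 CPM and adipocyte markers (8 genes) to 55.9, 8.19 and 39.5, led in Matrigel-only by *Krt19* and *Lpl*. Schwann cell markers (8 genes) summed to 72.2, 265 and 61.2 CPM, nearly all *Ncam1*, an adhesion molecule that fibroblasts can also make. T and NK markers (11 genes) summed to 7.15, 32.7 and 1.91 CPM. In Vehicle 11 of those 12 UMIs were *Trac*, spread over 9 of the 16 cells, while *Cd3e* was at 0. *Ptprc*, the leukocyte antigen CD45, was found in 8, 0 and 6 members, and no share and no ratio of the genes checked changed direction when these cells were left out.

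Relative to the other stromal cells of the same library, members differed past 2-fold in a small number of genes. A gene was past 2-fold when the ratio of CPM, with 5 CPM added to each side, was at least 2 in each of the 3 libraries among 2890 genes with at least 50 CPM. Of these 13 genes (0.450%) were higher in members and 68 (2.35%) lower. The rule read these same cells, so the counts are a description. They rest on the library that differs most, since 40 genes were higher and 155 lower without Vehicle, and 20 were higher without Matrigel-only. Against only the stromal cells that missed the rule on *Cd44* or *Aqp1*, the most similar class, 9 genes were higher and 47 lower, of which 6 and 35 were among the 13 and 68. In the lists below a gene needed at least 5 CPM on 1 side to be compared.

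Several genes higher in members organise matrix and cell surface. *Tnfaip6*, whose product TSG-6 binds hyaluronan and transfers protein chains to it, was at 445 CPM in members against 122 in the other stroma of Matrigel-only, 322 against 121 in Vehicle and 360 against 96.3 in Palo. *Timp1*, an inhibitor of matrix metalloproteinases, was at 1518 against 603, 3081 against 1235 and 2571 against 885 CPM. *Loxl2*, an enzyme that cross-links collagen, was at 1783 against 666, 922 against 447 and 1407 against 623 CPM. The members were higher in all 3 libraries for each of these.

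A second set encodes proteins of the cytoskeleton and membrane. *Crip1* and *Crip2*, small LIM domain proteins, were at 6086 and 376 CPM in members of Matrigel-only against 2554 and 106 in its other stroma. *Tagln2*, an actin-binding protein, was at 777 against 377 CPM there, *Pdlim1*, an adaptor of actin fibres, at 556 against 213, and *Cav1*, the coat protein of caveolae, at 493 against 164. *Tppp3*, a tubulin-binding protein of tendon sheath cells, completed the 13, at 472 against 231 CPM in Matrigel-only, 134 against 55.8 in Vehicle and 358 against 173 in Palo. The S100 list (12 genes), which holds *S100a4*, had 7 of 8 compared genes higher in Matrigel-only, 8 of 9 in Vehicle and 7 of 7 in Palo. Of all genes 50.3%, 53.2% and 49.5% were higher. *S100b* was past 2-fold lower in Matrigel-only and Vehicle. *S100a6* was at 11595 CPM in members against 6356 in the other stroma of Matrigel-only.

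The 12 named genes lowest in members relative to the other stroma included 3 genes of the rule. *Eln*, which encodes elastin, was at 36.4 CPM in members against 4466 in the other stroma of Matrigel-only, 2.73 against 402 in Vehicle and 63.8 against 2160 in Palo. *C3*, the central complement protein, was at 14.96 against 749, 5.46 against 217 and 4.46 against 355 CPM. *Mfap4*, a microfibril protein, *Mgp*, an inhibitor of calcification, *Igf1*, a growth factor, and *Sfrp1*, a secreted WNT inhibitor, were also lower in every library, at 7.80, 3.90, 4.55 and 2.60 CPM in Matrigel-only members against 415, 284, 177 and 501. *Lbp* and *Saa3*, acute phase proteins, and *Cxcl14*, a chemokine, completed the lower 12 with the rule genes *Pi16*, *Sox9* and *Cxcl12*. The perivascular and reticular list, which holds the rule gene *Cxcl12*, was lower in 9 of 10 compared genes in Matrigel-only, 7 of 10 in Vehicle and 9 of 9 in Palo, with medians of -2.49, -2.37 and -1.74 on the log2 scale, against medians near 0 over all genes.

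**Figure D3:**
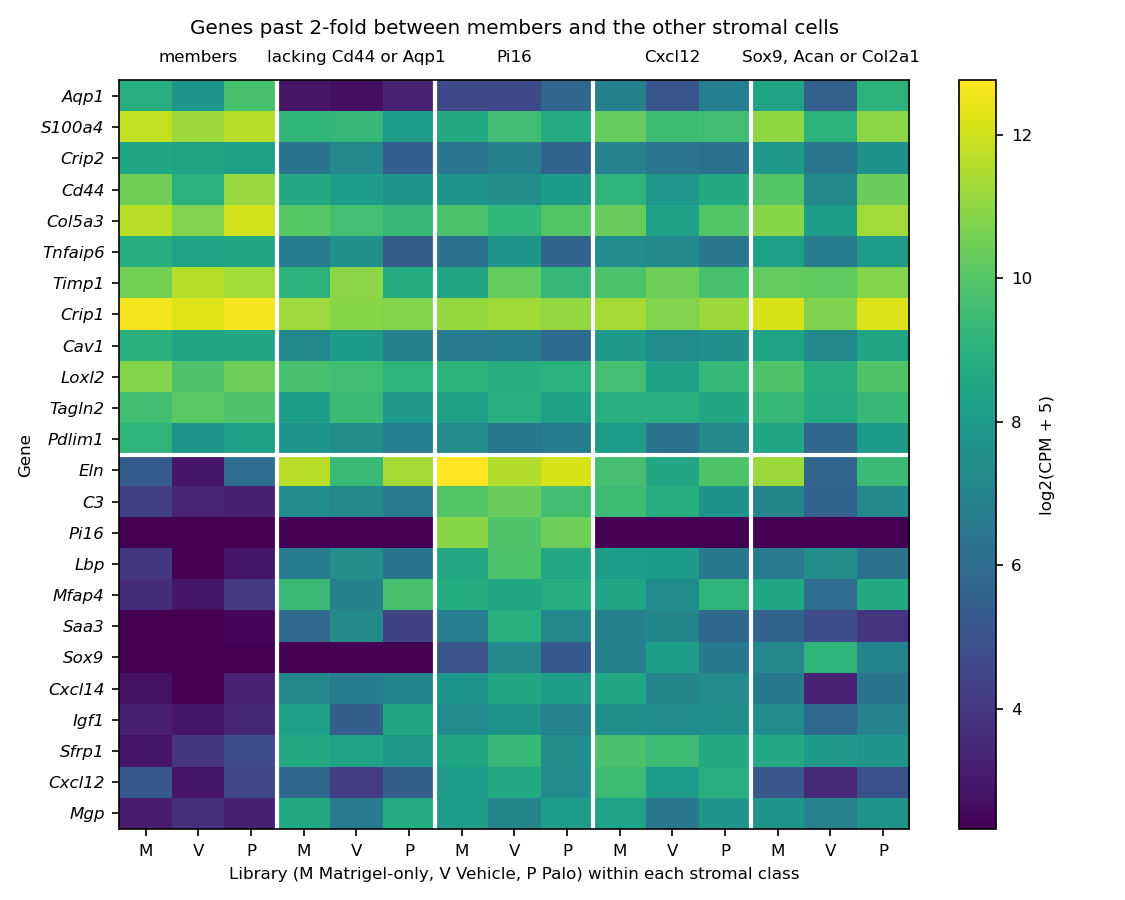
Level (colour, log2 of CPM + 5) of the 12 genes highest and the 12 lowest in members relative to the other stroma, in the members and in 4 other stromal classes of each library: cells lacking *Cd44* or *Aqp1*, cells with *Pi16*, cells with over 1 UMI of *Cxcl12*, and cells with *Sox9*, *Acan* or *Col2a1*. Cells with *Pi16* are in that class alone, and the last class holds no cell with over 1 UMI of *Cxcl12*. *Aqp1*, *S100a4* and *Cd44* are also high in the last class of Matrigel-only and Palo, and *Eln* is dark in members and bright in the *Pi16* class.

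For *Cd44*, *S100a4*, *Col5a3* and *Tnfaip6*, cells removed by cartilage genes alone were close to members in 2 libraries and lower in Vehicle. They numbered 43, 164 and 58 in Matrigel-only, Vehicle and Palo and met every other criterion of the rule, *Cd44* and *Aqp1* included. The rule used *Cd44* and the others are among the genes highest in members, so this is a description of those genes. In such cells of Matrigel-only *Cd44* was at 1624 CPM, *S100a4* at 3678, *Col5a3* at 3067 and *Tnfaip6* at 482, beside 1437, 3584, 3263 and 445 in members. In Palo they were at 2180, 3264, 3995 and 425 CPM. In Vehicle such cells had 273 CPM of *Cd44*, 988 of *S100a4*, 619 of *Col5a3* and 149 of *Tnfaip6*, each below the 510, 2328, 1768 and 322 CPM of the Vehicle members.

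Between libraries, the Vehicle members carried another expression profile than the rest. Of 3705 genes with at least 50 CPM in Vehicle or Matrigel-only members, 238 (6.42%) were past 2-fold higher in Vehicle and 370 (9.99%) lower. Of 3643 genes, 291 (7.99%) were past 2-fold higher in Palo than in Vehicle and 233 (6.40%) lower. Of 3412 genes, 43 (1.26%) were past 2-fold higher in Palo than in Matrigel-only and 65 (1.91%) lower. The first comparisons share the Vehicle library and rest on its 16 cells. With TMM scaling (factors of 1.01, 1.09 and 0.985) 350 genes were higher and 178 lower in Palo than in Vehicle.

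Signalling and skeletal genes were among the highest in Vehicle relative to Matrigel-only members, and the other Vehicle stroma also held them. In that stroma *Fmod* was at 1635 CPM, *Tnn* at 867, *Inhba* at 618, *Thbs1* at 520 and *Sp7* at 101. *Inhba*, which encodes the subunit of activin A (chr13:16011851-16031621), was at 44.9 CPM in Matrigel-only, against 2680 in Vehicle and 67.6 in Palo. It was found in 37 of 117, 16 of 16 and 32 of 98 members, and the lowest Vehicle cell held 3 UMIs. Its log2 ratio of Vehicle to Matrigel-only was 5.75, with a counting interval of 5.55 to 6.27 for the ratio without added CPM. At 3000 UMIs per cell, 10.2%, 95.2% and 12.3% of members showed it, against at most 1.86% of *C1qa*-positive cells.

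*Tnn*, a tenascin of bone-forming tissue (chr1:160085029-160153580), was at 14.96, 865 and 31.2 CPM in members of Matrigel-only, Vehicle and Palo and was in 8, 16 and 16 cells. *Fmod*, a collagen-binding proteoglycan of tendon and cartilage (chr1:134037254-134048277), had 0, 369 and 4 UMIs, which made Vehicle at least 516-fold higher than Matrigel-only, taking 3 counts per library as the limit for a count of 0. *Sp7*, the transcription factor osterix of bone-forming cells, had 0, 62 and 0 UMIs and was in 15 of 16 Vehicle members, at least 86.7-fold higher than in Matrigel-only.

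Other genes of this group were *Pappa*, a protease that frees insulin-like growth factors, at 7.15, 467 and 15.3 CPM, and *Aldh1a3*, an enzyme that makes retinoic acid, at 11.7, 478 and 17.2 CPM. *Ctgf*, a matricellular growth factor, was at 35.1, 980 and 296 CPM. *Thbs1*, a thrombospondin that can activate TGF-beta, was at 16.9, 409 and 118 CPM. *Ptgs2*, which makes prostaglandins, was at 29.3, 273 and 17.9 CPM and *Cdc42ep3*, a regulator of the cytoskeleton, at 21.5, 183 and 10.2 CPM. Not every gene was spread over the cells. *Cilp*, a cartilage intermediate layer protein, was in 4 of 16 Vehicle members, and for *Prg4*, which encodes lubricin, 1 Vehicle cell held 77.7% of the UMIs.

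BMP target genes were higher in Vehicle members. Of 12 compared genes of the BMP response list (16 genes), 12 were higher in Vehicle than in Matrigel-only and 8 past 2-fold, beside 6.42% of all genes, with a median log2 ratio of 1.27 against 0.04 over all 10634 genes. *Id1* was at 14.96, 161 and 19.8 CPM and *Id3* at 70.2, 655 and 63.1 CPM; both encode inhibitors of differentiation that BMP signals induce directly. Between Palo and Matrigel-only members the median was 0.37 over 8 genes, of which 6 were higher and 2 past 2-fold, *Grem1*, a BMP antagonist, at 10.2 against 1.30 CPM and *Msx1*, a homeobox factor, at 10.8 against 2.60, beside 1.20% of all genes. Against Vehicle the Palo median was -0.89 over 13 genes. *Runx2*, the early bone factor, was at 42.3, 101 and 58.7 CPM and *Smad7*, an inhibitor that the pathway induces, at 59.8, 106 and 61.9 CPM. In the other stroma the Vehicle over Matrigel-only median was 0.80 over 12 genes.

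Contractile genes were also highest in Vehicle members. All 9 compared genes of the contractile list (12 genes) were higher in Vehicle than in Matrigel-only, 6 of them past 2-fold beside 6.42% of all genes, with a median log2 ratio of 2.57. All 9 were lower in Palo than in Vehicle, 6 past 2-fold beside 7.07% of all genes, with a median of -1.36. Palo was above Matrigel-only for 8 of 8 genes, 1 past 2-fold, with a median of 0.61. Of all genes 46.2% were higher in that pair and 1.20% past 2-fold. *Acta2*, the actin of myofibroblasts, was at 177, 1550 and 274 CPM, *Tagln* at 26.0, 259 and 98.2 CPM, and *Tpm2*, a tropomyosin, at 312, 1089 and 453 CPM. *Myh11*, which marks mature smooth muscle, had 1, 0 and 0 UMIs. In the other stroma 9 of 9 genes were also higher in Vehicle, 4 past 2-fold beside 3.85% of all genes, with a median of 0.93.

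The 10 named genes lowest in Vehicle relative to Matrigel-only members were at or near 0 there. *Nov* (chr15:54745702-54754039), also called *Ccn3*, a matricellular protein, was at 1009, 0 and 1788 CPM and was found in 107 of 117, 0 of 16 and 88 of 98 members. Vehicle was at least 123-fold lower than Matrigel-only, and Palo at least 218-fold higher than Vehicle. *Lum*, a collagen-binding proteoglycan that was part of the collagen criterion, had 1243, 1 and 1139 UMIs. *Rarres2*, which encodes chemerin, had 913, 0 and 460 UMIs and *Efemp1*, fibulin-3, 528, 0 and 416. *Tnxb*, tenascin-X, was at 670, 2.73 and 425 CPM, *Gas7*, a protein of cell extensions, at 760, 5.46 and 356 CPM, and *Col14a1*, a fibril-associated collagen, at 460, 2.73 and 355 CPM.

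The progenitor list (13 genes) had 1 direction in each of the Vehicle comparisons. Of its 11 compared genes, 11 were lower in Vehicle than in Matrigel-only and 10 past 2-fold, beside 10.8% of all genes, with a median log2 ratio of -3.90 against 0.04 over all genes. All 11 were higher in Palo than in Vehicle and 10 past 2-fold, beside 9.16% of all genes, with a median of 3.52 against -0.07. *Clec3b*, tetranectin, was at 342, 0 and 174 CPM, *Dpp4*, the surface peptidase CD26, at 123, 0 and 149 CPM, and *Cd34*, a sialomucin of resting stromal cells, at 762, 30.0 and 501 CPM. *Ly6a*, known as Sca-1, was at 1972, 467 and 1528 CPM, and *Cd55*, a complement regulator that marks lining fibroblasts, had 301, 0 and 360 UMIs. In the other stroma 13 of 13 genes, the rule gene *Pi16* among them, were past 2-fold lower in Vehicle, with a median of -2.91, beside 6.99% of all genes. That stroma is another mix of cells in each library, since cells with *Pi16* made up 55.7%, 11.95% and 32.3% of stromal cells. Cells with cartilage genes but without *Pi16* and with at most 1 UMI of *Cxcl12* made up 6.28%, 72.4% and 11.6%. A change of mix cannot be told apart from a change within cells.

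**Figure D4:**
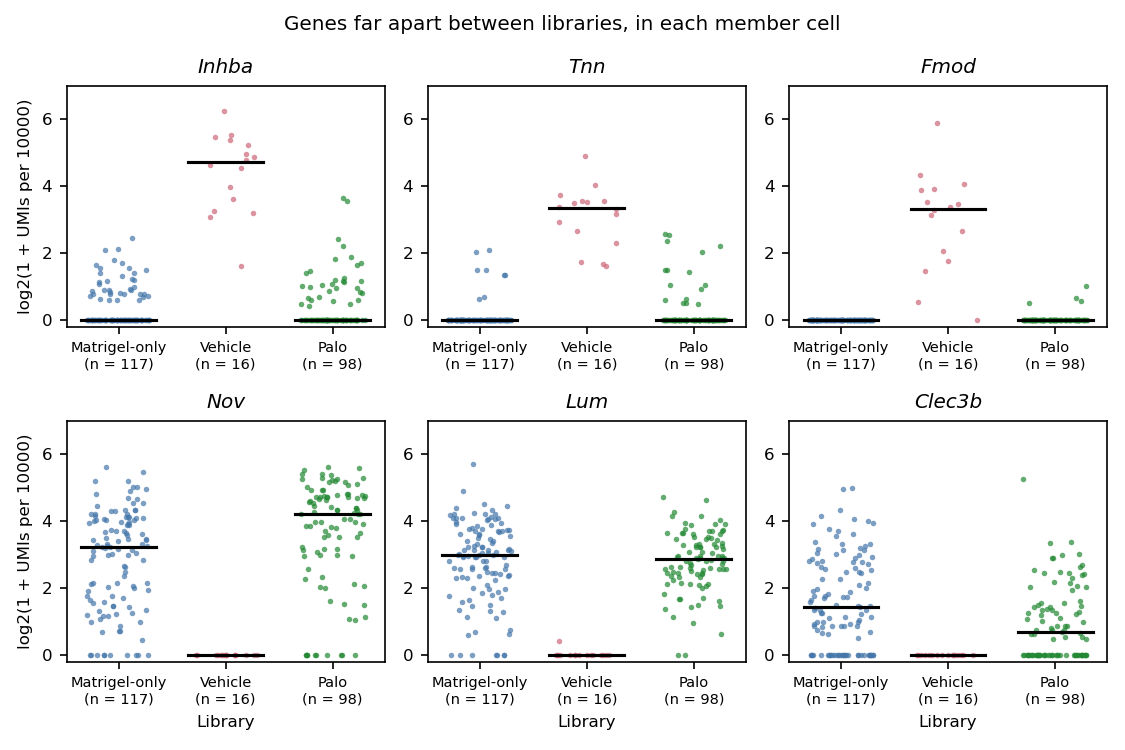
UMIs per 10000 in each member cell (y axis, log2 of 1 + value) for 3 genes high and 3 genes low in Vehicle, by library, with a bar at the median. All 16 Vehicle cells hold *Inhba* and *Tnn*, none holds *Nov* or *Clec3b*, and the ranges of Matrigel-only and Palo cells overlap in all 6 panels.

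Part of this contrast depends on the cartilage genes of the rule. Without that criterion the Vehicle group had 180 cells, *Nov* and *Inhba* kept their directions, and the progenitor median was -2.64, but the log2 ratio of *Lum* was -0.02 for Vehicle over Matrigel-only and -0.30 for Palo over Vehicle, where it had been 6.56. The Vehicle cells that the cartilage genes alone removed held 914 CPM of *Lum*, 1185 of *Inhba*, 1233 of *Tnn* and 4.65 of *Nov*. Immediate early genes, which also respond to tissue dissociation, differed in the same libraries. Of 15 genes 10 were past 2-fold lower in Vehicle members than in Matrigel-only, beside 10.8% of all genes, and 12 were past 2-fold higher in Palo than in Vehicle, beside 9.16%. In the other stroma 6 were past 2-fold lower in Vehicle, beside 6.99% of all genes, with a median of -0.99. *Egr1* was at 103, 8.19 and 160 CPM. Their part in the results was not tested.

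The activin list (10 genes) went both ways between Vehicle and Matrigel-only members, with *Inhba* higher in Vehicle. *Fst*, follistatin, which binds and neutralises activin, was at 152, 10.9 and 149 CPM in members of Matrigel-only, Vehicle and Palo. *Fstl1* was at 7956, 2257 and 6468 CPM, *Tgfbr3*, a coreceptor that also binds inhibin, at 124, 16.4 and 82.3 CPM, and *Fstl3*, another activin antagonist, at 13.7, 60.0 and 15.9 CPM. Receptors were sparse in all 3 libraries, and *Acvr1*, the receptor gene mutated in inherited HO, was at 34.5, 51.8 and 29.3 CPM. The median of the list was -0.10 for Vehicle over Matrigel-only, and 4 of 9 genes were higher, beside 52.3% of all genes.

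Genes of hyaluronan handling had no common direction. The receptor *Cd44* was lowest in Vehicle. Of the synthases, *Has1* was at 51.4, 16.4 and 70.1 CPM and *Has2* at 44.9, 90.1 and 28.7 CPM. *Ugdh*, which makes a sugar precursor of hyaluronan, was at 488, 112 and 363 CPM. The hyaluronan-degrading genes *Cemip* and *Tmem2* were at 0, 60.0 and 3.19 CPM and at 12.4, 115 and 23.6 CPM, highest in Vehicle. *Itih5*, a chain donor for hyaluronan, was at 95.6, 0 and 79.1 CPM, and *Vcan*, a proteoglycan that hyaluronan binds, was within 2-fold throughout at 575, 606 and 376 CPM. Of 13 compared genes of the list (20 genes), *Ptx3* alone was past 2-fold between Palo and Matrigel-only, at 5.74 against 26.7 CPM. Of all genes 1.96% were past 2-fold lower in that pair. Of 11 aquaporin genes, *Aqp1* alone reached 5 CPM.

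Several protease and chemokine genes differed in Vehicle members. *Adamts5*, a versican-cleaving protease, was at 613, 35.5 and 789 CPM and *Adamts1* at 233, 38.2 and 331 CPM. *Timp3*, a matrix-bound protease inhibitor, was at 183, 87.3 and 570 CPM. *Ccl2*, which attracts monocytes, was at 688, 81.9 and 231 CPM, and 1 cell held 76.7% of its Vehicle UMIs. Of 9 compared chemokine genes (19 listed), 6 were past 2-fold lower in Vehicle than in Matrigel-only, beside 10.8% of all genes. In the other stroma 5 of 14 were, beside 6.99% of all genes. Genes around *Il11* and *Nos2* had no common direction. The interleukin-6 family list (14 genes) had a median of -0.30 over 11 genes for Palo over Matrigel-only. The list of nitric oxide and arginine genes (13) had a median of -0.06 over 8 for that pair. There *Nos2* alone was past 2-fold, and lower in Palo, beside 1.96% of all genes. Fibrillar collagens (11 genes) had medians of 0.26 and 0.19 for Vehicle and for Palo over Matrigel-only. Cell cycle genes (18) had medians of -0.16, 0.07 and 0.19 over the 3 pairs, and *Mki67*, a proliferation marker, was found in 12.7%, 16.2% and 13.5% of members at 3000 UMIs.

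Palo and Matrigel-only members differed in hypoxia genes, which the HIF transcription factors induce when oxygen is low. All 18 genes of the hypoxia list were lower in Palo, 10 of them past 2-fold beside 1.96% of all genes, with a median log2 ratio of -1.17 against -0.02 over all 10244 genes. *Slc2a1*, the glucose transporter GLUT1 (chr4:119108711-119137983), was at 211 CPM in Matrigel-only, against 70.9 in Vehicle and 47.8 in Palo. Its log2 ratio for Palo over Matrigel-only was -2.03, with a counting interval of -2.53 to -1.78 for the ratio without added CPM. *Egln3*, an oxygen-sensing prolyl hydroxylase (chr12:54178981-54203860), was at 85.8, 24.6 and 10.2 CPM, *Adm*, the vessel-dilating peptide adrenomedullin, at 52.0, 10.9 and 5.74 CPM, and *Ndrg1* at 455, 104 and 121 CPM. *Vegfa*, the main angiogenic factor, was at 232, 341 and 95.02 CPM, so Vehicle was highest for that gene.

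Other stromal cells differed in the same direction but less. Their median for Palo over Matrigel-only was -0.68 over 17 genes, of which 17 were lower and 6 past 2-fold, beside 1.03% of all genes. In Matrigel-only, members were above the other stroma for 16 of 18 hypoxia genes (median 0.64) and 16 of 16 glycolysis genes (median 0.74), beside 50.3% of all genes, with *Gapdh* at 2768 against 1498 CPM. In Vehicle, members were below it for 16 of 18 hypoxia genes (median -0.97) and 17 of 17 glycolysis genes (median -0.49), while 53.2% of all genes were above it. In Palo, members were above the other stroma for 13 of 17 hypoxia genes (median 0.27) and 14 of 16 glycolysis genes (median 0.31). There 49.5% of all genes were above it. The direction between Vehicle and Matrigel-only members was not stable, since the hypoxia median of -0.74 became 0.05 for members chosen after thinning and 0.29 without the cartilage genes.

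Promoters of these genes are shown because ACGTG is a form of the core that the HIF proteins recognise. Other forms were not searched. The list was made of genes known to respond to HIF. The share that holds ACGTG follows from that choice and does not bear on the cause of the difference. In RefSeq promoters of GRCm38.p6, which run 300 bases from 250 before to 50 after each transcript start, ACGTG on either strand (CACGT read from the other strand, and part of the E-box CACGTG) occurred for 21.8% of 27025 genes. Of 18 hypoxia genes 15 were in the table and 12 held it, 7 of 8 among those past 2-fold lower in Palo and 5 of 7 among the others. A match is a description of letters and not a bound site. Windows of 29 bases around a match before the RefSeq start follow, 5′ to 3′ on the gene's strand, with the core in capitals, for *Slc2a1* (chr4:119108697-119108725, plus), *Egln3* (chr12:54204087-54204115, minus), *Ddit4* (chr10:59951941-59951969, minus) and *Bnip3* (chr7:138909597-138909625, minus).
Slc2a1: gtcccgccccggACGTGctccccaggccc
Egln3: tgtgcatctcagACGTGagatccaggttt
Ddit4: agaacgttgcgaACGTGcgcccggtgcct
Bnip3: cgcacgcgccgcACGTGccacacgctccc

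*Ddit4*, a stress-induced inhibitor of mTOR, was at 83.2, 40.9 and 26.1 CPM in members of Matrigel-only, Vehicle and Palo, and *Bnip3*, a mitochondrial autophagy protein, at 261, 213 and 120 CPM. Beyond the list, *Mt1* and *Mt2*, metal-binding metallothioneins, were at 1193, 478 and 277 CPM and at 393, 188 and 95.02 CPM. *Ak4*, a mitochondrial adenylate kinase, was at 85.8, 51.8 and 17.2 CPM, *Vwa1*, a basement membrane protein, at 64.4, 2.73 and 7.01 CPM, and *Tpm3-rs7* at 57.2, 2.73 and 10.8 CPM. *Ccnd1*, cyclin D1, was at 56.6, 158 and 10.2 CPM. *Nos2* had a log2 ratio of -2.46 (-3.34 to -2.18 without added CPM). *Tpm3-rs7* is a copy of a tropomyosin gene, so its reads may be split with its relative.

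Genes higher in Palo than in Matrigel-only members were fewer, and some came from few cells. *Slco2a1*, a prostaglandin transporter, was at 11.7 CPM in Matrigel-only and 72.7 in Palo and was found in 51 of 98 Palo members. *F3*, tissue factor, was at 15.6 and 98.8 CPM, *Fabp5*, a fatty acid carrier that also takes retinoic acid to the nucleus, at 188 and 743 CPM, and *Cyp51*, an enzyme of cholesterol synthesis, at 23.4 and 91.8 CPM. *Serpinb2*, an inhibitor of urokinase, was at 9.10 and 107 CPM in 8 and 25 members, and its log2 ratio of 2.99 was 1.19 for members chosen after thinning. *Ctgf* was at 35.1 and 296 CPM and *Thbs1* at 16.9 and 118 CPM. For *Isg15*, an interferon-induced protein, 10 Palo cells held the transcript and 1 of them 34.1% of the UMIs. *Bst2*, another interferon-induced gene, was at 17.6 and 81.6 CPM. For *Cilp* 1 Palo cell held 83.2% of the UMIs, and its log2 ratio of 2.51 was -0.87 for members chosen after thinning.

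Retinoid genes gave no common direction. Of 11 compared genes of the retinoid list (18 genes), 4 were higher in Palo than in Matrigel-only members, beside 46.2% of all genes. The median log2 ratio was -0.26. *Crabp2* alone was past 2-fold higher and *Rarres2* alone past 2-fold lower, beside 1.20% and 1.96% of all genes. *Crabp2*, a retinoic acid carrier, was at 8.45 CPM in Matrigel-only, against 21.8 in Vehicle and 23.6 in Palo, *Crabp1* at 41.6, 0 and 33.8 CPM, and *Dhrs3*, which reduces retinal, at 37.7, 16.4 and 16.6 CPM. *Cyp26a1*, the retinoic acid hydroxylase that retinoids induce, was at 0 in all 3 libraries, which allows up to 1.95, 8.19 and 1.91 CPM, and *Rarb* was at 7.80, 0 and 3.83 CPM. *Cyp26b1*, of the same list, was past 2-fold higher in Vehicle than in Matrigel-only members and past 2-fold lower in Palo than in Vehicle. Against Vehicle, 7 of 11 genes were higher in Palo, beside 45.2% of all genes, with a median of 0.05.

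**Figure D5:**
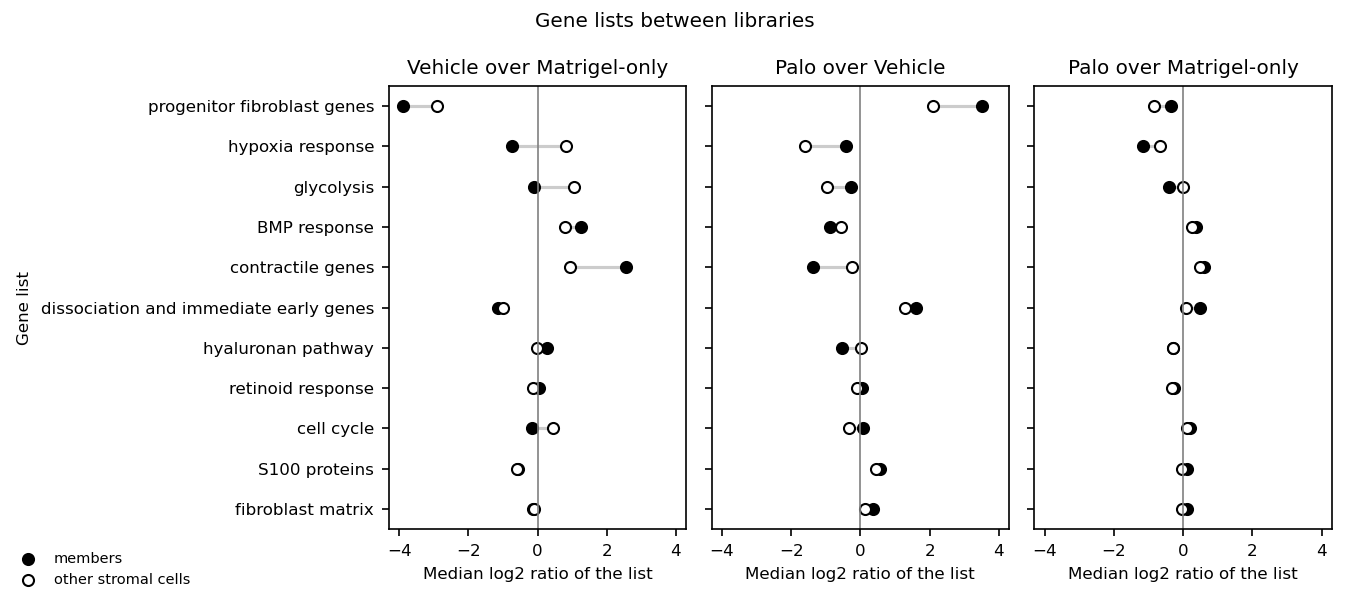
Median log2 ratio (x axis) of 11 gene lists for each pair of libraries, in the members (filled points) and in the other stromal cells (open points). In members the progenitor list stands at -3.90 for Vehicle over Matrigel-only and the hypoxia list at -1.17 for Palo over Matrigel-only, while the retinoid list is near 0 in each panel.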

How the data were processed

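One droplet library for each of 3 groups was analysed. Per the labels, the authors used Cell Ranger 3.0.2 and the mm10 assembly, and the submitters' notes also name Seurat 3. The deposited values are raw UMI counts for each barcode and gene, without normalization. Cells were selected by the rule in the text, and the members and gene lists were chosen with earlier results of these data known. The UMIs of a group of cells were summed and scaled to CPM with Python 3.11.15, NumPy 2.4.6 and SciPy 1.17.1. Named genes were those of the rule, the label and the cell type lists, the 12 in each direction against other stroma and the 10 in each direction between libraries, and, of each list, up to 4 of the highest genes and those past 2-fold with at least 50 CPM; others named from a list were chosen after their values were seen, and a few genes that the rule names are not reported here. Shares at 3000 UMIs were computed by the hypergeometric formula, leaving out shallower cells (2, 0 and 2 members).

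Scrublet, run in Scanpy 1.11.5, called 1, 3 and 0 cells by its own threshold and was taken not to have worked, so the 609, 240 and 426 highest scores, at 0.8% per 1000 cells, were called as an alternative, of which 6, 0 and 1 were members. TMM factors came from edgeR 4.0.16. Ratios and intervals were tested on simulated data. The 99.6% of gene IDs found in GENCODE vM21 share its build.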

Additional observations from a re-analysis of the deposited data

Results flagged for a closer look

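No group had the 4 samples that a check for outlying samples needs. Among genes with at least 50 CPM, 13 of 4237 were past 2-fold higher in members than in the other stroma in 1 library and past 2-fold lower in another, and 9 of them were named genes. Each rests on 1 library per group, and the difference between libraries was not tested. *Aldh1a3*, *Ctgf* and *Pappa* were higher in Vehicle members, with log2 ratios of 2.69, 2.42 and 2.30 over the other Vehicle stroma. In Matrigel-only these genes stood at -2.65, -2.41 and -1.79, and in Palo *Aldh1a3* was at -1.65 and *Pappa* at -1.57. *Ccnd1* was at 2.54 in Vehicle and -2.25 in Palo.

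*Nov* was at -4.02 in Vehicle, where no member held it, and at 1.22 in Palo. *Fabp5* was at -1.34 in Vehicle and 1.83 in Palo. The hypoxia genes *Ndrg1*, *Ero1l* and *Slc2a1* were at 1.08, 1.02 and 1.22 in Matrigel-only and at -1.68, -1.49 and -1.005 in Vehicle.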

How the results depend on the processing

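For the shares, counts and list medians, 123 values under an alternative stayed close to the reported value, 36 moved and 3 reversed. Shares moved for members chosen after thinning (Palo 14.1%, Palo minus Vehicle 12.9 points), for at least 2 UMIs of *Cd44* and *Aqp1* (Matrigel-only 5.49%), and for up to 1 UMI of the excluded genes (9.28%, 2.90% and 14.5% in Matrigel-only, Vehicle and Palo, Palo minus Vehicle 11.6 points). With all passing cells as the denominator they were 1.34%, 0.292% and 1.34%, with differences of -1.05 (Vehicle minus Matrigel-only) and 1.05 points (Palo minus Vehicle). With *Sox9*, *Acan* and *Col2a1* not used, chosen after seeing the data, they were 9.05%, 14.9% and 15.9%, and the differences were 5.88 and 0.981 points, the first reversed by construction, since those genes remove mostly Vehicle cells.

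Lowering the minimum to 20 CPM, which tests more genes, gave 22 higher and 114 lower genes in members than in the other stroma, 449 and 661 for Vehicle over Matrigel-only, 528 and 468 for Palo over Vehicle, and 73 and 122 for Palo over Matrigel-only. Leaving out 1 library in turn gave 19 to 40 higher and 82 to 155 lower genes in members, the most without Vehicle. With 1 CPM added the progenitor and BMP medians for Vehicle over Matrigel-only were -4.62 and 2.14. For members chosen after thinning, the progenitor medians were -3.03 (Vehicle over Matrigel-only) and 1.96 (Palo over Vehicle), and the hypoxia medians 0.052, reversed, and -1.41; the log2 ratio of *Cilp*, Palo over Matrigel-only, was -0.87, reversed, and that of *Aqp1*, Palo over Vehicle, 0.85, below 2-fold. With each gene's highest cell left out *Cilp* was at 0.89. Without the cartilage genes the progenitor medians were -2.64 and 2.48, the hypoxia medians 0.29, reversed, and -1.46, the BMP median for Palo over Vehicle -1.86, and *Lum*, Palo over Vehicle, -0.30, reversed. The causes of these shifts were not tested. TMM scaling kept 9 of the 13 genes higher in members, 184 of the 238 higher in Vehicle than in Matrigel-only and 178 of the 233 lower in Palo than in Vehicle, and the mean of each cell's CPM kept 12, 222 and 214 of them. Neither reversed a ratio of the genes checked, nor did leaving out *Ptprc*-positive cells, and leaving out doublet calls was run on the shares alone and reversed none.

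The 16 Vehicle cells limit every Vehicle value, since 3 counts there stand for 8.19 CPM. No paired analysis was possible because each group has 1 library and no pair of samples exists.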

Other observations

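Genes of sterol synthesis and uptake were higher in Palo than in Matrigel-only members for 22 of 22 genes, 13 of them past 2-fold, with a median log2 ratio of 1.09. Of all 10244 genes, 46.2% were higher, 1.20% past 2-fold, with a median of -0.02. The list was chosen after *Cyp51* had been seen among the highest genes, so it is no independent evidence. *Insig1*, which holds the pathway in check, was at 16.9 CPM in Matrigel-only members, 19.1 in Vehicle and 64.4 in Palo, and *Hmgcs1*, an early enzyme, at 61.1, 106 and 136 CPM. In the other stroma 20 of 20 genes were higher, 2 past 2-fold, with a median of 0.58. Of all genes there 45.2% were higher and 0.269% past 2-fold.

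Interferon-induced genes, a list chosen in the same way, were lower in members than in the other stroma for 15 of 16 genes in Matrigel-only, with a median log2 ratio of -1.77, 13 of 14 in Vehicle (-1.05) and 10 of 15 in Palo (-0.24). Of all genes 50.3%, 53.2% and 49.5% were higher in members of these libraries. Between members of Palo and Matrigel-only the median was 0.67 over 14 genes, whereas between the other stromal cells of those libraries it was -0.80 over 16 genes. *Irf7*, which amplifies interferon signals, was at 7.80 CPM in Matrigel-only members, 5.46 in Vehicle and 46.6 in Palo.

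Genes that YAP and TGF-beta induce, also listed after *Ctgf*, *Thbs1* and *F3* had been seen, had a median log2 ratio of 0.39 over 14 genes for Palo over Matrigel-only members. Past 2-fold higher were 6, beside 1.20% of all genes, 1 of them *Cilp*, which rests mostly on 1 Palo cell. Lower were 5 genes, of which *Tgfbi* was past 2-fold lower, beside 1.96% of all genes. For Vehicle over Matrigel-only the median was 1.96 over 15 genes, and -0.21 in the other stroma.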
